A study of Mus musculus with 12 samples.

Results

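The genes described here encode SR proteins, Tra2 proteins, CLK kinases and hnRNP proteins, families that regulate splicing by binding RNA or, for the kinases, by modifying SR proteins. They were chosen by name: symbols made of Srsf and a number, symbols that begin with Hnrnp, and Tra2a, Tra2b and Clk1 to Clk4, with at least 100 counts summed over all 12 libraries. Of 39 symbols that matched, 38 reached this minimum, out of 56980 genes in the table. They were 10 SR protein genes (Srsf1 to Srsf7, Srsf9, Srsf10 and Srsf11), 2 Tra2 genes, 4 CLK genes, 20 hnRNP genes and 2 hnRNP pseudogenes, Hnrnpa1l2-ps and Hnrnpa1l2-ps2. Srsf12 was the gene below the minimum. All 38 passed the filter on low counts and were tested.

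The cells were NIH/3T3, an established mouse fibroblast line of embryonic origin that the labels give as wild type. They were kept for 8 h with the vehicle DMSO, with the proteasome inhibitor carfilzomib at 200 nM (CFZ), with the topoisomerase II poison and DNA intercalator doxorubicin at 5 µM (DOX), or with both drugs at those doses (CFZ-DOX). All groups grew in DMEM with fetal bovine serum, and polyadenylated RNA was sequenced in 3 libraries per group. The labels name 1 line and do not say whether libraries came from separate cultures, so p-values measure the spread between these libraries, which may be technical.

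SR proteins bind exons, often at splicing enhancers, and recruit the spliceosome through a domain rich in arginine and serine. Tra2 proteins are SR-like activators, and CLK kinases phosphorylate the arginine and serine domain in the nucleus, which changes where SR proteins sit and how active they are. HnRNP proteins coat nascent transcripts, often silence exons, and also act in RNA export, stability and translation. Many SR and hnRNP genes carry conserved poison exons whose inclusion sends their own transcript to nonsense-mediated decay, and the proteins use these to limit their own level. The counts here are per gene and do not separate such transcript forms.

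Libraries held 28278879 to 42033993 counts. Markers of fibroblasts were detected in every library, 9 of 9, with a summed level of 18711 to 75213 CPM. The 5 leukocyte markers summed to 0.0249 to 0.371 CPM and the 5 epithelial markers to 0.353 to 4.03 CPM. In this paragraph CPM are counts relative to the plain library total. In later paragraphs they are counts relative to the scaled library size. Replicate 3 of DOX and replicate 3 of CFZ-DOX stood apart from the others of their groups on principal component 3, at −60.6 against 6.66 and −7.14 and at −24.6 against 43.0 and 32.6. The summed level of 4 skeletal muscle markers was 7.62 to 9.39 CPM with DMSO, 2.66 to 5.77 CPM with CFZ, 13.4 to 24.1 CPM with DOX and 14.5 to 25.2 CPM with CFZ-DOX. The fibroblast markers summed to 26682 to 35023, 18711 to 28527, 33401 to 57617 and 43641 to 75213 CPM in the same order, and the epithelial markers to 2.74 to 4.03, 0.353 to 1.28, 1.52 to 1.95 and 0.418 to 1.17 CPM. In each library the highest fibroblast marker was Col1a1, Col1a2 or Fn1. Single fibroblast markers moved both ways against DMSO in the main fit described below. Their log2 fold changes ran from −2.05 to 0.48 with CFZ, −2.20 to 1.27 with DOX and −2.58 to 2.02 with CFZ-DOX. The part of all these markers in the results was not tested. Ribosomal protein genes took 3.81 to 4.29% of the counts without doxorubicin, 6.54 to 7.09% with DOX and 9.76 to 10.4% with CFZ-DOX. Fold changes therefore depend on the scaling. The values below use edgeR's TMM scaling, and each call was repeated under 4 more: size factors as DESeq2 computes them, plain library size, the upper quartile, and the sum of 81 ribosomal protein genes. The median gene sat lower by ribosomal scaling than by TMM, with shifts of −0.87 (DOX) and −1.65 (CFZ-DOX) on the log2 scale from DMSO, and higher by the upper quartile, with shifts of 0.38 and 0.50. In the CFZ comparison the shifts lay between −0.09 and 0.01.

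In vehicle-treated cells, levels per length (CPM per kilobase of exon) were highest for hnRNP genes. The length is that of all annotated exons of a gene merged, not of an mRNA, so the order of genes depends on it. Hnrnpa1, which encodes an abundant exon-silencing and shuttling protein, stood at 371 ± 14.6 CPM per kilobase (SD, n = 3), Hnrnpab at 318 ± 27.7 and Hnrnpa2b1 at 198 ± 14.5. Among SR genes, Srsf2 led at 93.7 ± 15.4 CPM per kilobase, followed by Srsf1 at 75.5 ± 5.40 and Srsf5 at 66.7 ± 3.98, and Srsf4 was lowest at 9.53 ± 0.414. Without division by length, Srsf1, Srsf3 and Srsf6 stood above Srsf2, at means of 431, 387 and 285 CPM against 277 CPM. The CLK genes were low, between 3.84 ± 0.247 for Clk3 and 8.56 ± 0.909 for Clk1. The pseudogene Hnrnpa1l2-ps stood at 0.424 ± 0.174 CPM per kilobase, and since it is a near copy of Hnrnpa1 its reads may be shared with that gene. With DOX, Srsf1 and Srsf2 stood at 10.2 ± 2.96 and 19.3 ± 3.19 CPM per kilobase, and Srsf5 led the family at 29.8 ± 2.09.

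Doxorubicin alone lowered nearly the whole SR family. Of 10 SR genes 9 fell and none rose against DMSO, and 8 of the 9 fell at least 2-fold; the exception among the 10 was Srsf11. The median log2 fold change of the 10 SR genes was −1.68, against 0.14 for all 16648 genes tested. Over all 38 members 21 fell and 1 rose at an adjusted p under 0.05 (edgeR quasi-likelihood test with Benjamini-Hochberg adjustment), where 31.3% of all tested genes fell and 36.1% rose. At least 2-fold, 12 members fell and none rose, against 19.3% of all genes lower and 23.4% higher. The DOX and DMSO libraries did not overlap in 26 of 38 members, against 72.5% of all genes. Without replicate 3 of DOX and of CFZ-DOX, an alternative chosen after seeing the data, 22 members fell and 4 rose. In bulk RNA, less RNA per cell and fewer cells that carry the RNA cannot be told apart.

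The steepest fall was that of Srsf1 (ENSMUSG00000018379), the founding SR protein and a splicing enhancer-binding factor, at chr11:87938199-87944581 on the plus strand in GRCm39. Its libraries held 396, 452 and 445 CPM with DMSO and 57.1, 75.4 and 41.7 CPM with DOX. Every DOX library was far below every DMSO library, and the fitted change was −2.89 on the log2 scale (SE 0.19, edgeR adjusted p = 3.64e-08), a 7.42-fold fall. Srsf2 (ENSMUSG00000034120, chr11:116740727-116743920, minus strand), also called SC35 and a classical marker of nuclear speckles, went from 227, 315 and 290 CPM to 59.3, 65.2 and 46.7 CPM. The groups did not overlap, and the log2 fold change was −2.28 (SE 0.19, edgeR adjusted p = 2.29e-07). Srsf3 (ENSMUSG00000071172, chr17:29251602-29262347, plus strand), the smallest SR protein and one that also couples splicing to mRNA export, went from 361, 384 and 416 CPM to 84.3, 97.9 and 65.3 CPM. Its DOX libraries were again all below the DMSO libraries, with a log2 fold change of −2.23 (SE 0.16, edgeR adjusted p = 7e-08). Part of the exons of Srsf1 (11.56% of their bases) lies opposite Gm11508, and parts of those of Srsf2 (15.55% and 9.74%) lie opposite Mettl23 and Mfsd11, and the strand setting of the counting is not given in the sources used here.

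A further 6 SR genes fell by 0.60 to 1.72 on the log2 scale. Srsf7, which like Srsf3 links splicing to export, fell by 1.72 on the log2 scale, from 166, 209 and 202 CPM to 60.8, 61.2 and 53.7 CPM. Srsf10, a splicing repressor when dephosphorylated after heat shock, fell by 1.71, Srsf6 by 1.64, Srsf4 by 1.25, Srsf5 by 1.16 and Srsf9 by 0.60. Each of these 6 passed the edgeR test, with the DOX libraries below the DMSO libraries, and their adjusted p-values ran from 4.18e-08 for Srsf10 to 0.00364 for Srsf9. Exons of Srsf4 overlap the opposite-strand gene Gm12992 over 43.02% of their bases. Srsf11, an SR-related nuclear protein, was at 111, 119 and 114 CPM with DMSO and 96.8, 101 and 78.8 CPM with DOX. Its groups did not overlap, but the log2 difference of −0.32 (SE 0.14) missed the threshold in edgeR (adjusted p = 0.0506). With the replicate number as a block it passed (edgeR adjusted p = 0.0306), as it did under library-size scaling (adjusted p = 0.00324).

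**Figure D1:**
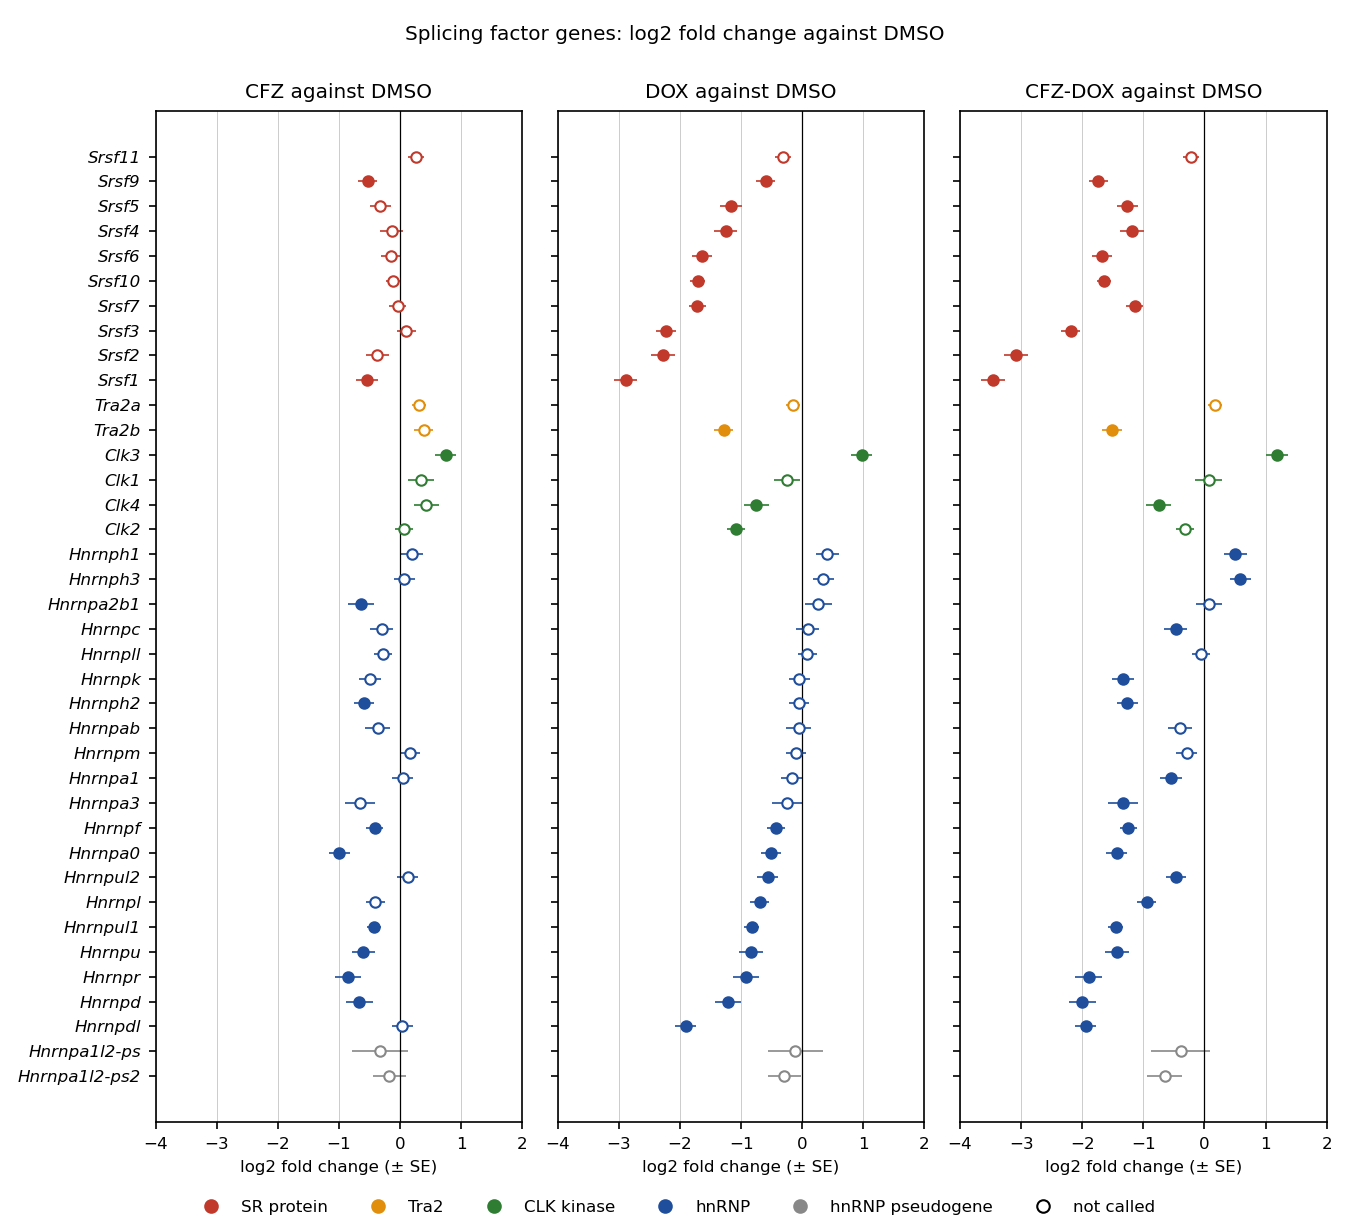
Log2 fold changes against DMSO (x axis, edgeR with TMM scaling, bars ± SE) of the 38 members (rows, in the order of their change with DOX within each family) for CFZ, DOX and CFZ-DOX. Filled points passed an adjusted p of 0.05 and open points did not. The SR genes sit between −2.89 and −0.32 with DOX, and the hnRNP genes between −1.91 and 0.41.

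Promoter windows of 250 bases upstream of the start site were found for 34 of the 38 members in RefSeq's GRCm38.p6 table and searched on both strands for 6 motifs: the E-box, the cAMP response element, heat shock element units in pairs, the CCAAT box (those letters), the GC box (GGGCGG) and the TATA box (TATAAA). The CCAAT box was in the windows of 3 of 10 SR genes and 13 of 18 hnRNP genes, against 37.5% of all 27025 genes with a window. The GC box was in 9 of 10 and 14 of 18, against 35.4%, and the TATA box in 2 of 10 and 1 of 18, against 14.3%. The E-box, searched as the letters CACGTG, was in 0 of 10 and 3 of 18, against 6.9%. The cAMP response element, searched in its full palindromic form of TGACGTCA, was in none, against 1.8%. The heat shock element pair, with any base at both central positions and written GAANNTTC, was in 1 of 10 and 3 of 18, against 7.7%. The 100 bases upstream of the SR genes that fell most with DOX, Srsf1 (chr11:88047273-88047372, plus strand) and Srsf2 (chr11:116853095-116853194, minus strand), and of the hnRNP gene that fell most with CFZ (described further on), Hnrnpa0 (chr13:58128557-58128656, minus strand), are shown 5′ to 3′ with matches to the CCAAT, GC and TATA boxes on either strand in capitals:
Srsf1: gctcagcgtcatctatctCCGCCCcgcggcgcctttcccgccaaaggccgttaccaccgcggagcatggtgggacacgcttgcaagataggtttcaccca
Srsf2: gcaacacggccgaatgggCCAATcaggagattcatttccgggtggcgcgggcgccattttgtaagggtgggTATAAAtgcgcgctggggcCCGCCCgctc
Hnrnpa0: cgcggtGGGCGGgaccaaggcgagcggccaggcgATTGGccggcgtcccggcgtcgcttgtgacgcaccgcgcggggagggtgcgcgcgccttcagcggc
All of these hold the GC box, Srsf2 and Hnrnpa0 also hold the CCAAT box, and of these 3 Srsf2 holds the TATA box. A match is a string of letters and not a measured site. A gene counted as holding a motif if any of its windows did. The 27025 genes were not limited to those tested here. The printed bases of Srsf1, Srsf2 and Hnrnpa0 were 63, 63 and 79% G and C, against a median of 55% over all windows.

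Of the Tra2 pair, 1 gene passed the test. Tra2b, an activator of exons with purine-rich enhancers, went from 203, 204 and 213 CPM to 81.9, 93.5 and 78.2 CPM with DOX, and no DOX library reached a DMSO library. The log2 fold change was −1.29 (SE 0.16, edgeR adjusted p = 6.98e-06). Its paralog Tra2a was at 118, 141 and 133 CPM and at 124, 120 and 108 CPM, and the groups overlapped (log2 difference −0.15, SE 0.12, edgeR adjusted p = 0.259). Per length, the ratio of Tra2a to Tra2b in a library, which no scaling changes, was 0.772 to 0.922 with DMSO and 1.70 to 2.01 with DOX. This pair was chosen after its values were seen, so the ratio is a description.

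The CLK kinases moved in both directions. Clk3 (ENSMUSG00000032316, chr9:57657907-57673143, minus strand) was the member that rose, from 30.5, 34.6 and 32.4 CPM to 55.5, 64.6 and 70.9 CPM. All DOX libraries were above all DMSO libraries, with a log2 fold change of 0.97 (SE 0.18, edgeR adjusted p = 0.000254). Scaled to the ribosomal protein genes the rise of Clk3 was 0.13 and did not pass the test, and 15.2% of its exon bases lie opposite Edc3. Clk2 went from 23.9, 27.4 and 26.9 CPM to 12.3, 12.2 and 12.4 CPM, a log2 fold change of −1.08 (SE 0.15, edgeR adjusted p = 2.42e-05). Clk4 fell by 0.75 on the log2 scale (edgeR adjusted p = 0.00506), and Clk1, the best studied of the SR protein kinases of this family, was at 61.3, 72.1 and 75.5 CPM and at 62.6, 49.5 and 63.4 CPM. The Clk1 groups overlapped and the log2 difference of −0.25 (SE 0.22) did not pass (edgeR adjusted p = 0.314). The ratio of Clk3 to Clk2 per length, also a pair chosen after its values were seen, was 0.755 to 0.799 with DMSO and 2.83 to 3.58 with DOX.

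**Figure D2:**
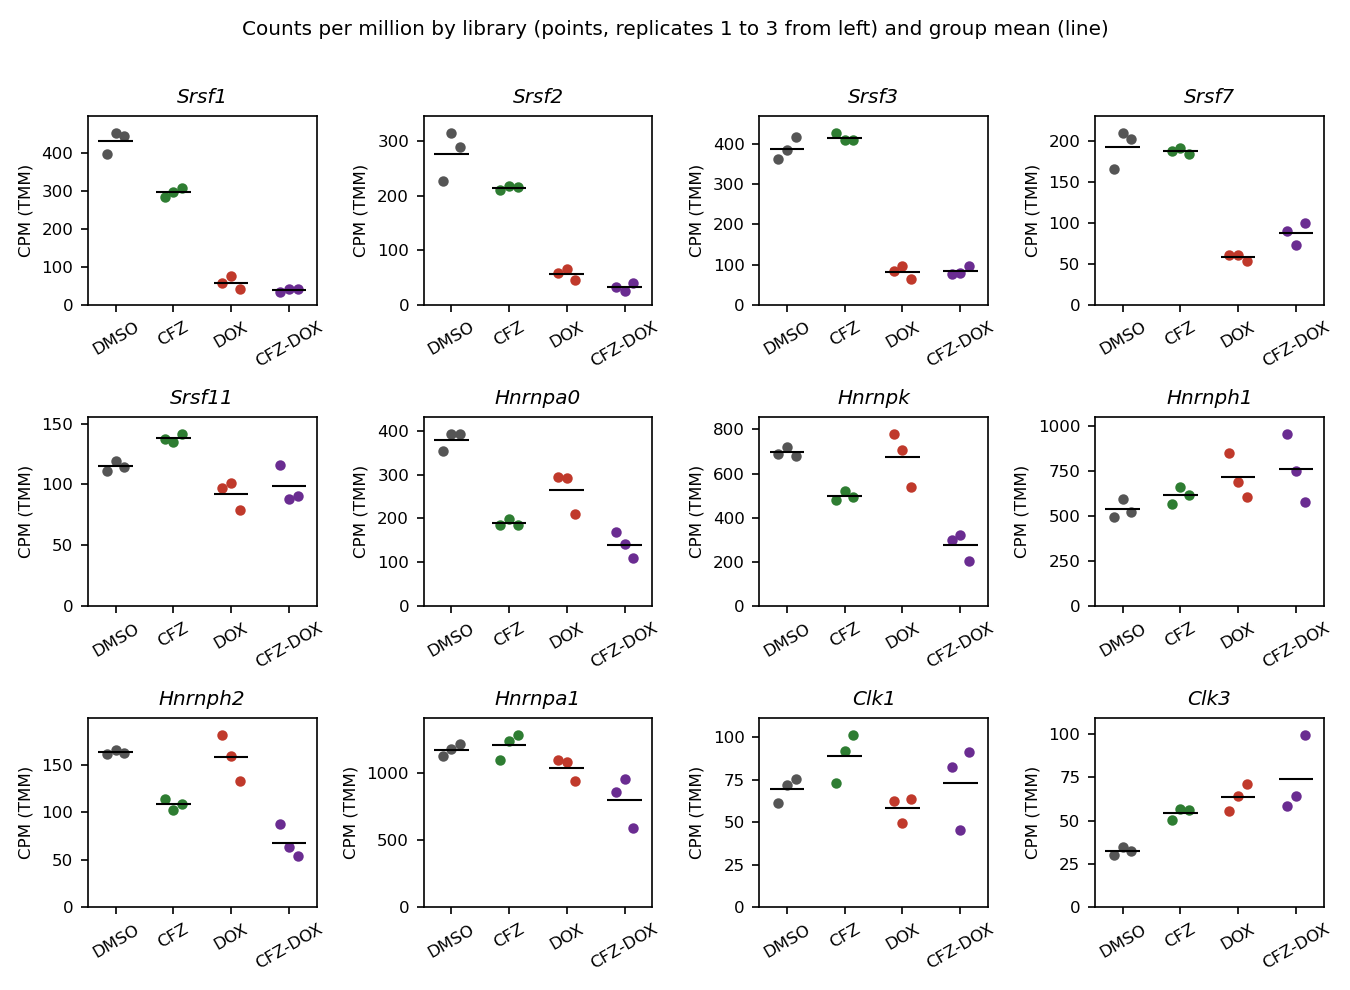
TMM-scaled CPM (y axes, from 0) of 12 members in each of the 12 libraries (points, replicates 1 to 3 from left to right within a group) with group means (lines). Srsf1, Srsf2 and Srsf3 are lower in all 6 libraries with doxorubicin than in any library without it, while Hnrnph1 is not.

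Of 20 hnRNP genes, 9 fell with DOX, none rose and 11 did not pass, with a median log2 fold change of −0.21. Among all tested genes 31.3% fell and 36.1% rose. At least 2-fold, 2 of the 20 fell, against 19.3% of all genes. The largest falls were in Hnrnpdl, a paralog of Hnrnpd, and in Hnrnpd itself, which encodes the AU-rich element binding protein AUF1. Hnrnpdl went from 236, 248 and 229 CPM to 78.0, 67.3 and 45.0 CPM (log2 fold change −1.91, SE 0.17, edgeR adjusted p = 4.4e-07). Hnrnpd went from 214, 250 and 228 CPM to 106, 121 and 70.7 CPM (log2 fold change −1.22, SE 0.22, edgeR adjusted p = 0.000199). In neither gene did the groups overlap. Hnrnpr, Hnrnpu, Hnrnpul1, Hnrnpl, Hnrnpul2, Hnrnpa0 and Hnrnpf fell by 0.43 to 0.92 on the log2 scale.

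Several abundant hnRNP genes did not pass the test with DOX under TMM. Hnrnpa1 was at 1122, 1175 and 1214 CPM with DMSO and 1096, 1082 and 937 CPM with DOX. The DOX libraries were all below the DMSO libraries, but the log2 difference was −0.17 (SE 0.18, edgeR adjusted p = 0.396). Hnrnpk, a poly(C)-binding protein, was at 690, 720 and 681 CPM and at 779, 708 and 539 CPM, with overlapping groups and DOX replicate 3 lowest. Hnrnph1, which binds runs of G, was at 495, 598 and 523 CPM and at 850, 688 and 608 CPM, all 3 DOX libraries above the DMSO libraries. Its log2 difference of 0.41 (SE 0.19) missed the threshold in edgeR (adjusted p = 0.0687), and passed with the replicate number as a block (adjusted p = 0.0401) and without replicate 3 of DOX and of CFZ-DOX (adjusted p = 0.00294). Upper-quartile scaling put it at 0.79 and ribosomal scaling at −0.48, each past the threshold, so the scaling set its direction.

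Scalings differed in what they gave for hnRNP genes with DOX. In all 5 scalings 14 members fell with DOX and none rose, where 22.3% of all tested genes fell and 13.4% rose in all 5. The 14 held 8 of the 10 SR genes, Tra2b, Clk2 and 4 hnRNP genes (Hnrnpd, Hnrnpdl, Hnrnpr and Hnrnpul1), so Srsf9 was the SR gene that fell under TMM but not in every scaling. Under upper-quartile scaling 4 hnRNP genes rose and 4 fell, with a median of 0.17. Of all 16648 tested genes 8069 then rose and 3713 fell, with a median of 0.52. Under ribosomal scaling all 20 hnRNP genes fell, with a median of −1.10. Of all tested genes 9067 then fell and 2234 rose, with a median of −0.73. The SR median stayed below 0 in each of the 5 scalings, between −2.56 and −1.30.

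**Figure D3:**
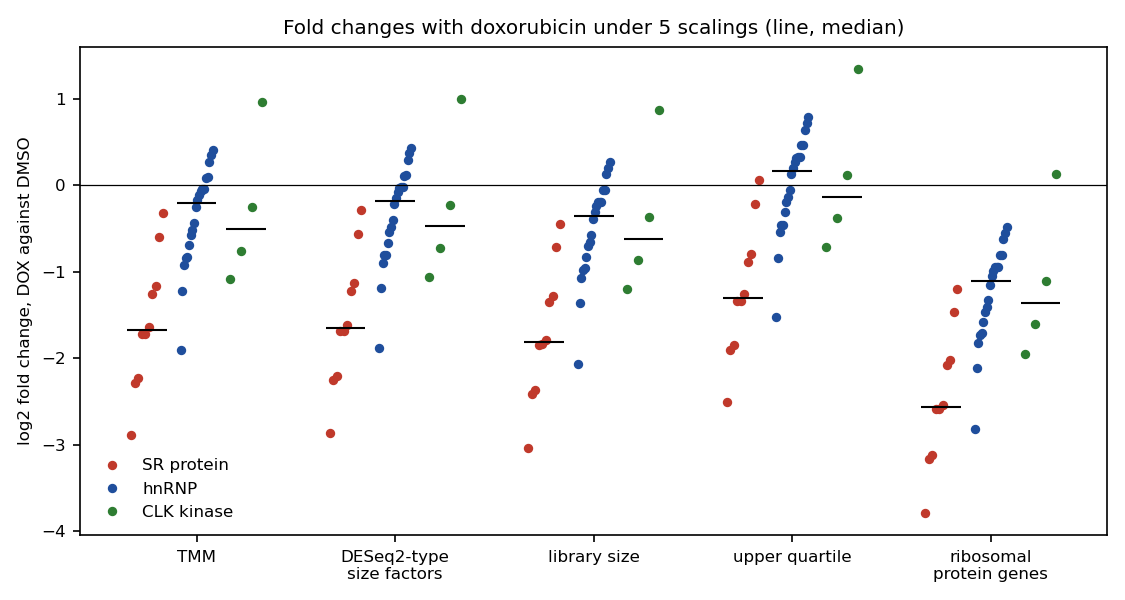
Log2 fold changes of DOX against DMSO (y axis) for SR, hnRNP and CLK genes (points, sorted within a family) under the 5 scalings (x axis), with the median of each family as a line. The SR median runs from −2.56 to −1.30 and that of the hnRNP genes from −1.10 to 0.17.

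Sums over the families give a measure free of scaling when one is divided by the other. The 10 SR genes together took 0.247 ± 0.0195% of the library's counts with DMSO and 0.0676 ± 0.0061% with DOX (SD, n = 3), while the 20 hnRNP genes took 1.08 ± 0.0514% and 0.866 ± 0.0551%. SR genes made up 18.02 to 19.04% of the counts of both families in the DMSO libraries, 19.6 to 21.2% with CFZ, and 6.82 to 7.65% with DOX. In the CFZ-DOX libraries the share was 8.52, 7.23 and 12.7%, replicate 3 being highest. All 6 libraries with doxorubicin were below all 6 without it.

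**Figure D4:**
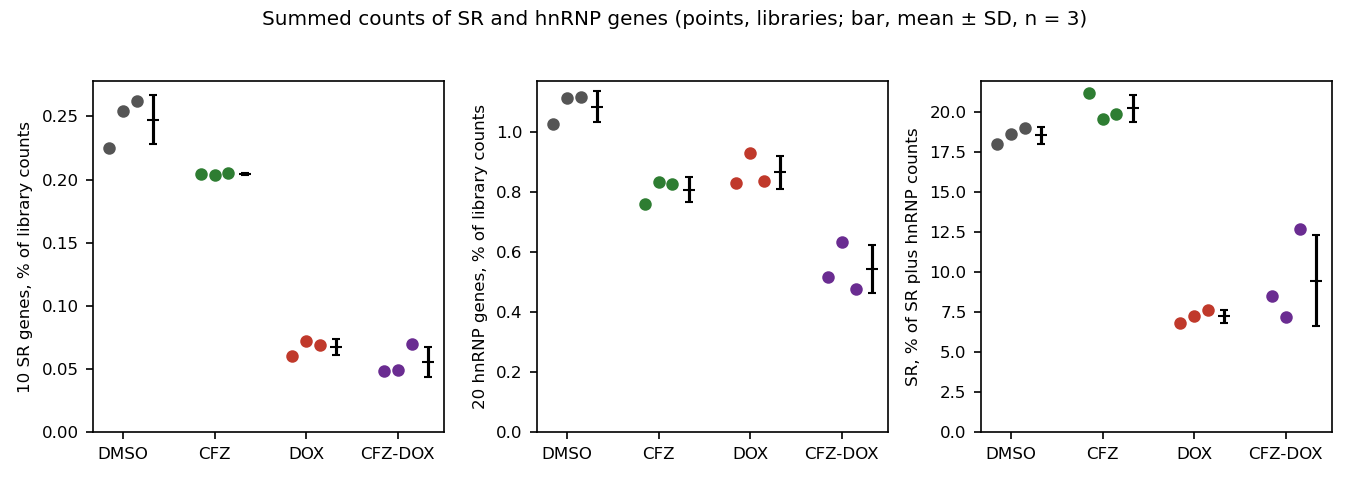
Summed counts of the 10 SR genes and of the 20 hnRNP genes as a percentage of library counts, and the SR share of both sums (y axes, from 0), in each library (points) with the mean ± SD of 3 libraries (bars). The SR share is 18.02 to 21.2% without doxorubicin and 6.82 to 12.7% with it.

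With carfilzomib alone, calls were mostly in hnRNP genes. Of 20 hnRNP genes 8 fell and none rose, with a median log2 fold change of −0.41, while 2 of 10 SR genes fell (Srsf1 and Srsf9) and the SR median was −0.15, against −0.01 for all genes tested. Over the 38 members 10 fell and 1 rose (edgeR, adjusted p under 0.05), where 14.4% of all tested genes fell and 14.4% rose. All 10 fell in each of the 5 scalings, as did 12% of all genes, and no member rose in all 5, as 7.92% of all genes did. None fell 2-fold and none rose 2-fold, against 6.51% and 5.9% of all genes. The CFZ and DMSO libraries did not overlap in 26 of 38 members, against 56% of all genes. At an adjusted p under 0.01, 2 members fell. Leaving out any 1 of the 6 libraries left 2 to 5 lower members, and fitting only the 6 libraries compared gave 18 lower and 6 higher. With the replicate number as a block 13 fell and 3 rose.

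Hnrnpa0 (ENSMUSG00000007836, chr13:58273693-58276370, minus strand, 1 exon), an AU-rich element binding relative of Hnrnpa1, fell most. It went from 352.9, 392.5 and 391.8 CPM with DMSO to 186, 200 and 185 CPM with CFZ, and the groups were far apart (log2 fold change −0.996, SE 0.17, edgeR adjusted p = 0.000643). Hnrnpr, whose protein also travels with mRNAs in axons, went from 141, 152 and 152 CPM to 77.8, 86.3 and 83.4 CPM (log2 fold change −0.85, SE 0.21, edgeR adjusted p = 0.00812). Both genes passed the test whichever library was left out. Hnrnpd went from 214, 250 and 228 CPM to 135, 151 and 150 CPM, without overlap (log2 fold change −0.66, SE 0.21, edgeR adjusted p = 0.0312), and missed the threshold without any 1 of the 6 libraries, at adjusted p-values of 0.0553 to 0.109. Hnrnpa2b1, Hnrnpu, Hnrnph2, Hnrnpul1 and Hnrnpf fell by 0.42 to 0.64 on the log2 scale.

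The SR genes that fell with CFZ were Srsf1 and Srsf9. Srsf1 went from 396, 452 and 445 CPM to 283, 297 and 309 CPM (log2 fold change −0.54, SE 0.18, edgeR adjusted p = 0.0368). Srsf9 went from 52.2, 65.8 and 60.8 CPM to 35.7, 42.9 and 45.6 CPM (log2 fold change −0.53, SE 0.16, edgeR adjusted p = 0.0199). The groups did not overlap in either gene, yet Srsf1 missed the threshold without any 1 of the 6 libraries (adjusted p = 0.0579 to 0.121). Srsf9 missed it without 4 of them: DMSO 2, DMSO 3, CFZ 1 or CFZ 2. Srsf3 was at 427, 410 and 408 CPM with CFZ, overlapping the DMSO libraries (log2 difference 0.10, SE 0.16, edgeR adjusted p = 0.68), and Srsf7 and Srsf10 also overlapped.

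Clk3 rose with CFZ as well, to 50.6, 56.7 and 56.1 CPM, above every DMSO library (log2 fold change 0.75, SE 0.18, edgeR adjusted p = 0.00596). Under library-size and ribosomal scaling its rise was 0.66 and 0.65 and missed the threshold (adjusted p = 0.113 and 0.116). Clk1 was at 72.9, 91.9 and 101 CPM, with 1 library below the highest DMSO library (log2 difference 0.35, SE 0.22, edgeR adjusted p = 0.252). Tra2a and Tra2b were higher in all 3 CFZ libraries, at 154, 162 and 169 CPM and at 260, 263 and 288 CPM. Their log2 differences of 0.31 and 0.39 missed the threshold (edgeR adjusted p = 0.063 and 0.0737) and passed with the replicate block (adjusted p = 0.0399 and 0.0407). Hnrnpa3, Hnrnpk and Hnrnpl, at −0.65, −0.49 and −0.41, missed the threshold in the fit without the block and passed with it (adjusted p = 0.0141, 0.0157 and 0.0181). Hnrnpa1 was at 1097, 1240 and 1281 CPM, overlapping DMSO (log2 difference 0.04, SE 0.18, edgeR adjusted p = 0.894).

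With both drugs, most members were lower than with DMSO. Of 38, 25 fell and 3 rose (edgeR, adjusted p under 0.05), where 35.7% of all tested genes fell and 39.3% rose. In all 5 scalings 21 fell and none rose, against 24.8% lower and 11.1% higher among all genes. At least 2-fold, 20 fell and 1 rose, against 24.3% and 30.6%. The CFZ-DOX and DMSO libraries did not overlap in 31 of 38, against 76.4% of all genes. The falls took in 9 of 10 SR genes (median log2 fold change −1.66), 14 of 20 hnRNP genes (median −1.09), Tra2b and Clk4, and the median of all genes was 0.09. Without replicate 3 of DOX and of CFZ-DOX 27 fell and 4 rose.

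Srsf1 stood at 33.8, 42.8 and 41.0 CPM with CFZ-DOX, a 10.99-fold fall from DMSO (log2 fold change −3.46, SE 0.20, edgeR adjusted p = 7.14e-09). Srsf2 stood at 32.3, 24.9 and 40.9 CPM (log2 fold change −3.08, SE 0.20, edgeR adjusted p = 1.3e-08), and Srsf3 at 77.4, 79.5 and 97.3 CPM (log2 fold change −2.19, SE 0.16, edgeR adjusted p = 3.97e-08). All of these libraries were below the DMSO libraries. Among hnRNP genes, Hnrnpd was 4.001-fold lower, and Hnrnpdl and Hnrnpr had log2 fold changes of −1.94 and −1.90. Hnrnpa1 was at 858, 952 and 591 CPM, below DMSO in every library (log2 fold change −0.55, SE 0.18, edgeR adjusted p = 0.0115), but at −0.04 under upper-quartile scaling, where it missed the threshold (adjusted p = 0.849). Srsf11 was at 116, 88.2 and 90.8 CPM and overlapped DMSO.

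The 3 members that rose with CFZ-DOX were Clk3, Hnrnph3 and Hnrnph1. Clk3 reached 58.2, 64.1 and 99.5 CPM, replicate 3 being highest (log2 fold change 1.19, SE 0.18, edgeR adjusted p = 3.14e-05). Hnrnph3, a member of the hnRNP H and F group, went from 24.3, 28.2 and 27.1 CPM to 45.0, 42.5 and 32.1 CPM (log2 fold change 0.59, SE 0.17, edgeR adjusted p = 0.00698). Hnrnph1 stood at 956, 752 and 578 CPM, and replicate 3 lay within the DMSO range of 495 to 598 CPM (log2 fold change 0.50, SE 0.19, edgeR adjusted p = 0.0266). Without DMSO 1, DMSO 3, CFZ-DOX 1 or CFZ-DOX 2 the rise of Hnrnph1 missed the threshold (adjusted p = 0.11, 0.0904, 0.183 and 0.054). Upper-quartile scaling put Clk3, Hnrnph3 and Hnrnph1 at 1.68, 1.09 and 0.9995. Scaling to library size put them at 0.90, 0.22 and 0.12. Hnrnph3 and Hnrnph1 then missed the threshold (edgeR adjusted p = 0.182 and 0.254). Scaled to the ribosomal protein genes the same genes stood at −0.41, −1.08 and −1.18, so their direction turned in that scaling. Clk1 was at 82.5, 45.2 and 91.2 CPM, spread on both sides of the DMSO values (log2 difference 0.07, SE 0.22, edgeR adjusted p = 0.785).

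The effect of doxorubicin in the presence of carfilzomib was read from CFZ-DOX against CFZ, which uses other libraries than DOX against DMSO. Here 27 of 38 members fell and 3 rose (edgeR, adjusted p under 0.05), where 36.9% of all tested genes fell and 40.4% rose; 14 fell in all 5 scalings and none rose, against 25.3% and 13.4%. At least 2-fold, 14 fell and none rose, against 25.5% and 32.5%, and libraries did not overlap in 31 of 38 members, against 77.8%. All 10 SR genes fell, with a median log2 fold change of −1.36, including Srsf11 at −0.49 (SE 0.14, edgeR adjusted p = 0.00441), which was at 138, 135 and 141 CPM with CFZ. Tra2b fell by 1.91 and Clk4 by 1.18. Clk3, Hnrnpa2b1 and Hnrnph3 rose, by 0.44, 0.71 and 0.52, and each fell under ribosomal scaling (−1.06, −0.87 and −1.05). The 21 members that fell with DOX alone all fell here too, and 6 more did. Across the 38 members the 2 sets of log2 fold changes had a Pearson r of 0.92 and a Spearman rho of 0.88, given as a description because members are not independent and share 1 scaling and 1 fit.

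The effect of carfilzomib in the presence of doxorubicin was read from CFZ-DOX against DOX. Of 38 members 13 fell and 2 rose (edgeR, adjusted p under 0.05), where 12% of all tested genes fell and 10.3% rose; 10 fell in all 5 scalings and none rose, against 8.34% and 0.757%. At least 2-fold, 4 fell and none rose, against 3.42% and 3.78%, and libraries did not overlap in 13 of 38 members, against 31.5%. The 13 were 10 hnRNP genes and the SR genes Srsf1, Srsf2 and Srsf9, and the median was −0.47 for hnRNP genes and 0.00 for SR genes. Hnrnpk fell most, from 779, 708 and 539 CPM to 301, 320 and 206 CPM (log2 fold change −1.29, SE 0.18, edgeR adjusted p = 0.000399), without overlap; its exons overlap those of Rmi1 over 5.1% of their bases. Hnrnph2, an X-linked paralog of Hnrnph1, went from 181, 159 and 133 CPM to 87.2, 63.0 and 53.8 CPM (log2 fold change −1.21, SE 0.17, edgeR adjusted p = 0.000365). Srsf9 fell from 35.5, 46.7 and 36.2 CPM to 17.3, 20.2 and 16.3 CPM (log2 fold change −1.14, SE 0.16, edgeR adjusted p = 0.000373). With only these 6 libraries fitted, 5 members fell and none rose; Hnrnpk, Hnrnph2 and Srsf9 were not among the calls lost. With the replicate block Tra2a also rose (log2 fold change 0.33, edgeR adjusted p = 0.0345). Of the 10 members that fell with CFZ alone, 9 also fell here (Hnrnpa0, Hnrnpd, Hnrnpf, Hnrnph2, Hnrnpr, Hnrnpu, Hnrnpul1, Srsf1 and Srsf9), and the log2 fold changes of the 38 members in both settings had a Pearson r of 0.75 and a Spearman rho of 0.81.

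**Figure D5:**
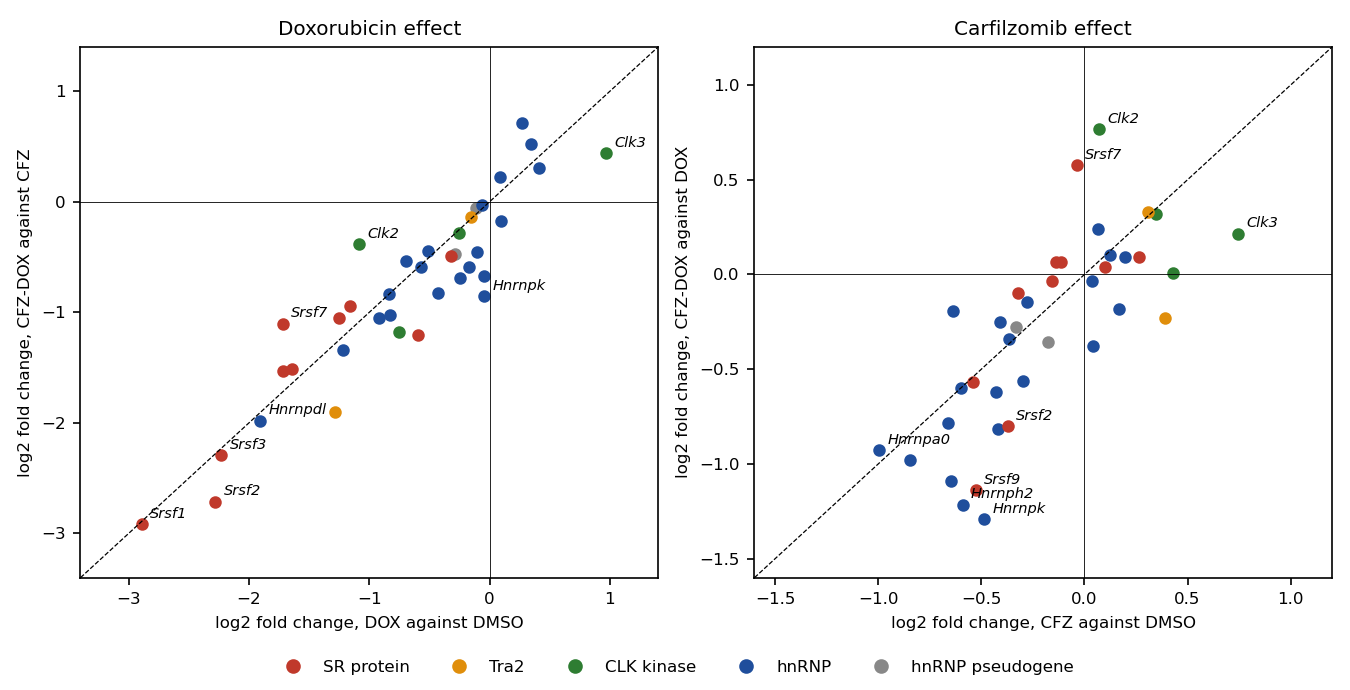
Log2 fold changes of the 38 members for each drug alone against DMSO (x axes) and on top of the other drug (y axes): DOX on the left, CFZ on the right; the dashed line marks equal effects. The points for DOX lie along the line (Pearson r 0.92), with Srsf1 at −2.89 and −2.92, and those for CFZ have a Pearson r of 0.75.

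The joint effect was compared with the sum of both single effects. The interaction, the log2 difference between the joint effect and that sum, passed the edgeR test in 3 of 38 members: 2 were higher than the sum and 1 was lower, where 8.46% and 11.2% of all tested genes were. Hnrnpk was at −0.81 (SE 0.25, edgeR adjusted p = 0.0381): its libraries held 690, 720 and 681 CPM with DMSO, 481, 519 and 492 with CFZ, 779, 708 and 539 with DOX, and 301, 320 and 206 with both drugs. Clk2 was at 0.70 (SE 0.21, edgeR adjusted p = 0.0326), with 12.3, 12.2 and 12.4 CPM with DOX and 22.3, 16.7 and 23.7 CPM with both drugs. Srsf7 was at 0.61 (SE 0.20, edgeR adjusted p = 0.0415), with 60.8, 61.2 and 53.7 CPM with DOX and 89.6, 73.0 and 99.6 CPM with both. In all 5 scalings no member passed in either direction, against 1.48% of all genes higher and 6.58% lower, and none was 2-fold from the sum, against 5.72% and 6.23%. Ribosomal scaling gave 0.02 for Clk2 and −0.05 for Srsf7. Leaving out 1 library gave 0 to 3 higher and 0 to 4 lower members, the replicate block 2 and 5 (the added 4 being Hnrnph2, Srsf9, Clk3 and Tra2b), and leaving out replicate 3 of DOX and of CFZ-DOX 3 and 7. Under TMM, Srsf1, Srsf3 and Hnrnpa0, at −0.03, −0.06 and 0.07, were near the sum of the single effects. Under ribosomal scaling Hnrnpa0 was at −0.61 (edgeR adjusted p = 0.00432). In that scaling 17 of 20 hnRNP and 6 of 10 SR genes were lower than the sum, as were 5211 of all 16648 tested genes.

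Ratios between related members within a library do not depend on scaling; the pairs were chosen after their values were seen, so these are descriptions. Per length, Hnrnph1 was 2.30 to 2.702 times Hnrnph2 with DMSO, 3.72 to 4.84 times with CFZ, 3.24 to 3.51 times with DOX and 8.04 to 8.93 times with CFZ-DOX. None of the groups overlapped another in this ratio. Srsf11 went from 0.173 to 0.190 times Srsf1 with DMSO to 0.307 to 0.329 with CFZ, 0.904 to 1.28 with DOX and 1.39 to 2.32 with CFZ-DOX. Hnrnpab, which encodes an AUF1-like protein, was 10.1 to 10.2 times Hnrnpd with DMSO, 12.1 to 12.95 times with CFZ, 20.4 to 26.4 times with DOX and 27.8 to 34.1 times with CFZ-DOX. The exons of Hnrnpab share 29.08% of their bases with the opposite-strand gene Phykpl.

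Other parts of the splicing machinery were counted from lists written with earlier results of these data known, to be read against the 31.3% of all tested genes that fell with DOX and the 36.1% that rose. In all 5 scalings 22.3% of all genes fell and 13.4% rose. The partners of SR proteins that share their arginine and serine domain fell with DOX in 17 of 18 cases, 14 of them in all 5 scalings (median log2 fold change −1.11). Among them was Srrm2, a scaffold of nuclear speckles, which went from 397 ± 42.2 to 202 ± 18.5 CPM (log2 fold change −0.97, edgeR adjusted p = 2.07e-05). Of 8 tested SR protein kinases and phosphatases 5 fell, all of them in all 5 scalings, and 1 rose. The SR protein kinase Srpk1 fell by 1.22 on the log2 scale and the phosphatase subunit Ppp1cc by 1.68, while Ppp1ca rose by 0.65. Of 27 other splicing regulators 16 fell, 13 in all 5 scalings, and 3 rose, with Sfpq at −1.09 and the exon repressor Ptbp1 at 0.63.

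Counts for core components with DOX were nearer to those shares. Of 24 U1, U2, Sm and U2AF genes 9 rose and 10 fell, such as the Sm protein gene Snrpd2 at 1.02 and the U2 component Sf3b1 at −0.67, and 6 of the falls held in all 5 scalings. Of 24 tri-snRNP and catalytic step genes 4 rose and 10 fell, 6 in all 5 scalings, with the helicase Ddx23 at 72.2 ± 9.52 CPM against 219 ± 8.90. None of the rises with DOX in these lists held in all 5 scalings, and under ribosomal scaling Ppp1ca, Ptbp1 and Snrpd2 stood at −0.24, −0.25 and 0.13.

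With CFZ, 14.4% of all tested genes rose and 14.4% fell. In all 5 scalings 7.92% of all genes rose and 12% fell. SR-related genes rose in 4 of 18 cases and fell in 1, with Rbm39 at 0.75 (edgeR adjusted p = 0.0135) and Arglu1 at −0.44, and in all 5 scalings 2 rose and none fell. Tri-snRNP and catalytic step genes rose in 7 of 24 cases, 3 of them in all 5 scalings, with none lower, such as the helicase Dhx38 at 0.95 and Prpf6 at 0.89. Other lists had more falls than rises. Of the 27 other splicing regulators 7 fell and 1 rose, of the 24 U1, U2, Sm and U2AF genes 4 fell and 1 rose, and of the 8 kinases and phosphatases 2 fell and none rose, and all of these falls held in all 5 scalings.

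Nonsense-mediated decay factors rose in 7 of 15 cases with CFZ, with none lower, where 14.4% of all tested genes rose and 14.4% fell. In all 5 scalings 3 of the 15 rose with CFZ, against 7.92% of all genes. With DOX 10 of the 15 fell and 1 rose, where 31.3% of all genes fell and 36.1% rose. In all 5 scalings 7 of the 15 fell with DOX, against 22.3% of all genes. The kinase Smg1, which phosphorylates the decay factor UPF1, was at 153 ± 12.1 CPM with DMSO, 261 ± 8.97 with CFZ and 36.4 ± 1.83 with DOX (log2 fold changes 0.77 and −2.07, edgeR adjusted p = 0.000228 and 1.55e-08). With CFZ-DOX it was at 41.2 ± 3.32 CPM.

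Properties of the genes were set beside their changes as descriptions, with no test. Merged exons are the blocks left after joining all annotated exons of a gene that overlap or touch. Their number can differ from the number of exons in a transcript. Across 36 members without the pseudogenes, the log2 fold change with DOX had a Spearman rho of 0.40 with the number of merged exons, 0.16 with the genomic span and 0.04 with exon length. Within families, the rho with the number of merged exons was 0.67 over the 10 SR genes and −0.09 over the 20 hnRNP genes. Srsf1, Srsf2 and Srsf3, which fell most, have 3, 2 and 4 merged exons, and Srsf11 has 14. Srsf5 also has 4 and fell by 1.16, while Srsf7 and Srsf10, with 8 and 7, fell by 1.72 and 1.71. Over the 10 SR genes, the change with DOX also had a rho of −0.61 with the level per length in DMSO. The change with CFZ had a rho of 0.62 with the number of merged exons over the same genes. The change with CFZ had a rho of −0.48 with the level per length in DMSO over the 36 members, −0.59 over the 10 SR genes and −0.09 over the 20 hnRNP genes.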

How the data were processed

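Per the labels, the authors sequenced polyadenylated RNA of NIH/3T3 cells in 12 libraries. They deposited 1 table of raw counts, whole reads per Ensembl gene, with GRCm39 coordinates and exon lengths. Per the submitters' processing notes, reads were trimmed and aligned with Trimmomatic 0.39 and STAR 2.7.9a, and Subread 2.0.2 (featureCounts) gave the table. The annotation release, strand setting and handling of read pairs are not given in the sources used here. Symbols came from an older annotation, used for names only, which matched 52073 of 56980 IDs (91.4%). Unnamed IDs held 0.25 to 0.72% of a library's counts and stayed in the tests.

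Genes were filtered with filterByExpr (minimum count 10, minimum total 15), which left 16648. They were tested with edgeR 4.0.16 in R 4.3.3 (quasi-likelihood F test, robust fit, TMM, prior count 0.125) in 1 model of 12 libraries with a mean per group and 8 residual degrees of freedom. P-values were Benjamini-Hochberg adjusted over all genes, with calls at 0.05. SEs were obtained from the log2 fold change and F, as its size over the root of F. CPM are TMM-scaled. Members, lists and naming rule were chosen with earlier results of these data known. Named in full are the called members with the 3 highest and 3 lowest changes against DMSO, up to 2 in each direction for the interaction, and Srsf3, Hnrnpa1 and Clk1. Of each other list, the 2 most abundant called genes in each direction could be named. Alternatives were 4 other scalings, DESeq2 1.42.0, limma-voom (limma 3.58.1), other filters, a stricter threshold of 0.01, only the 6 libraries compared, a replicate block and leaving out libraries.

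Same-numbered libraries were checked for shared deviation from their group means. The r across genes (replicates 1, 2, 3) was 0.38, 0.30, 0.42 between CFZ and DMSO; 0.25, 0.26, 0.21 between DOX and DMSO; and 0.58, 0.35, 0.65 between CFZ-DOX and DOX. The pairing here rests on these values, not on the labels. Between CFZ-DOX and DMSO (0.29, 0.06, 0.08) or CFZ (0.26, 0.02, 0.10), not every pair exceeded 0.1.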

Additional observations from a re-analysis of the deposited data

Results flagged for a closer look

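The effect of carfilzomib on 3 members differed between cells with and without doxorubicin by the edgeR test of the interaction, on the log2 scale: Hnrnpk at −0.81, Srsf7 at 0.61 and Clk2 at 0.70. Hnrnpk was lower with both drugs than the sum of the single effects, and Srsf7 and Clk2 were higher. Among all tested genes 11.2% were lower and 8.46% higher. No member's call held in all 5 scalings, and none held at an adjusted p under 0.01. Hnrnpk lost its call without any 1 DMSO or CFZ library, DOX 1 or DOX 2. Clk2 lost it without DMSO 2, DMSO 3, any CFZ library, DOX 1, DOX 2 or CFZ-DOX 1, and Srsf7 without these or DOX 3. The cause was not tested.

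Srsf12, an SR gene below the minimum of 100 summed counts, is in no comparison above, but had more counts in libraries with doxorubicin. Its counts were 0, 2 and 1 with DMSO, 0, 0 and 0 with CFZ, 12, 12 and 6 with DOX, and 10, 14 and 15 with CFZ-DOX. The highest count was 15, and every library with doxorubicin was above every library without it. The number of genes with any count was likewise higher with doxorubicin, at 25438 to 26809 per library against 21408 to 22345 without it. The Srsf12 counts are near the floor and were not tested.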

How the results depend on the processing

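The count of lower members stayed within 1.5 times its main value under every alternative for CFZ-DOX against DMSO (25). For the other counts and the named members, the values that moved follow. Scaling to library size gave 0 higher and 16 lower for CFZ, 2 higher for DOX, 1 higher for CFZ-DOX against DMSO, 1 higher against CFZ, 0 higher against DOX, and 0 higher and 4 lower for the interaction. Upper-quartile scaling gave 5 higher for DOX, 7 higher for CFZ-DOX against DMSO, 7 higher and 14 lower against CFZ, and 0 lower for the interaction. Ribosomal scaling gave 0 higher in every comparison, with 37 lower for DOX, 32 lower for CFZ-DOX against DOX and 27 lower for the interaction. DESeq2-type size factors gave 2 higher for CFZ and 2 for DOX, and DESeq2 gave 2 and 3. Without a filter the interaction had 0 higher, and with at least 1 CPM in 3 libraries DOX had 3 higher and CFZ-DOX against CFZ 5 higher. The 6 libraries alone gave 6 higher and 18 lower for CFZ, 2 higher for DOX, and 0 higher and 5 lower for CFZ-DOX against DOX. An adjusted p under 0.01 left 2 lower for CFZ, 1 higher for CFZ-DOX against CFZ, 1 higher against DOX, and 0 higher and 0 lower for the interaction. Without replicate 3 of DOX and of CFZ-DOX, DOX had 4 higher and the interaction 7 lower. The replicate block gave 3 higher for CFZ, 2 higher for DOX and 5 lower for the interaction. In CFZ-DOX against DMSO, where r for same-numbered libraries was 0.29, 0.06 and 0.08, the block added Hnrnpab and Hnrnpa1l2-ps2 to the lower members (edgeR adjusted p = 0.0257 and 0.0471). Beside these and the members named with the block in the results above, the block changed no other member's call.

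Leaving out 1 library gave 2 to 5 lower members for CFZ, 1 to 3 higher for DOX, 1 to 4 higher for CFZ-DOX against CFZ, and 0 to 3 higher and 0 to 4 lower for the interaction. The DOX count reached 3 higher without DOX 3, and CFZ-DOX against CFZ fell to 1 higher without CFZ 1.

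Signs turned in members near 0 and in those that rose with CFZ-DOX. Under ribosomal scaling Clk3, Hnrnph3, Hnrnph1 and Clk1 stood at −0.41, −1.08, −1.18 and −1.56 for CFZ-DOX against DMSO, Srsf3 and Clk1 at −0.69 and −0.46 against DOX, and Srsf7 at −0.052 for the interaction. Hnrnpa1 for CFZ stood at −0.047 under library-size, −0.0054 under upper-quartile and −0.054 under ribosomal scaling, and at 0.20 for DOX under upper-quartile scaling. Clk1 stood under upper-quartile scaling at 0.12 for DOX and 0.25 for CFZ-DOX against CFZ, and at −0.25 for CFZ-DOX against DMSO under library-size scaling. For CFZ-DOX against DOX, Srsf3 stood at −0.14 under library-size scaling, −0.033 without a filter and −0.24 without replicate 3 of DOX and of CFZ-DOX, where Clk1 against DMSO stood at −0.19. For the interaction, Srsf3 and Clk1 stood at 0.0037 and 0.028 with size factors, 0.0038 and 0.028 with DESeq2, 0.10 and 0.13 under upper-quartile scaling and 0.015 and 0.044 with at least 1 CPM. Leaving out 1 library moved Clk1 between −0.13 and 0.31 against DMSO and between −0.23 and 0.22 for the interaction, and Srsf3 between −0.15 and 0.17 for CFZ-DOX against DOX and between −0.22 and 0.066 for the interaction. The causes were not tested. With 3 libraries per group, differences of about the size of the SE could not be told from 0.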
